A study of Mus musculus with 5 samples.

Results

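Hepatocyte lineage transcription factors were followed through the Ago-binding clusters listed on their transcripts in developing mouse liver. The set holds 8 genes, Hnf4a, Foxa1, Foxa2, Foxa3, Cebpa, Onecut1, Prox1 and Foxq1, of the 16252 protein-coding genes listed in at least 1 of 5 interaction tables. Every table entry whose gene field contained a symbol of the set was used, which gave 358 distinct clusters over the 5 stages. Ago HITS-CLIP crosslinks RNA to Argonaute proteins with ultraviolet light in the tissue, precipitates the complexes and sequences the bound RNA. Livers of C57BL/6 mice (C57BL/6J in the methods) were taken as embryos (e12.5, e15.5 and e18.5, named by days of gestation), 7 days after birth (P7) and as adults, with 1 table per stage. Ago2 antibodies from Wako and Abnova were used for the embryonic livers, and an Ago1 antibody (MBL) was added at P7 and in adults, so that antibody and postnatal age cannot be told apart. The methods speak of biological replicates of the Ago2 CLIP, but the labels mark no replicate at any stage and the tables do not say which reads came from which, so no test between stages was possible, and each difference below is one between tables.

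Most of these factors bind the promoters and enhancers of liver genes. Foxq1 aside, several of them hold one another's expression in a network through which hepatoblasts become hepatocytes. Hnf4a is a nuclear receptor, the Foxa proteins are forkhead factors that open chromatin, Cebpa is a leucine zipper factor of metabolic genes, Onecut1 (HNF6) and Prox1 are homeodomain factors, and Foxq1 is a forkhead factor outside the Foxa family. A miRNA guides Ago to a transcript mainly through its seed, the bases near its 5′ end. Such a site is usually followed by lower stability or translation of the mRNA, and Ago clusters show where the complex was held, not what followed.

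Each entry is a seed-matched site (6mer, 7mer-A1, 7mer-m8 or 8mer) with a read number, a conservation score from 0 to 1, and the regions it lies in. The read number can differ between sites of 1 cluster, and the highest was taken as the reads of the cluster. The reads were scaled to the summed cluster reads of the table, given as reads per 1000000 cluster reads (rpm). Clusters at miRNA genes took from 50.4% (e18.5) to 79.9% (adult) of those sums and mRNA clusters (3′UTR, CDS or 5′UTR) from 13.5% (adult) to 30.0% (e18.5), so a second scale, the reads of a gene in mRNA clusters per 1000000 reads of all mRNA clusters (mRNA-rpm), is set beside the first where it changes the account. Values from the 5 stages are given in the order of age. The summed reads ranged from 13008703 at e18.5 to 44867326 at e12.5. Intervals are Wilson 95% intervals and cover counting error only. A table lists no cluster below 5 reads and none without a seed match, so a gene that is not listed is not shown to be unbound.

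The embryonic tables each hold 2 lists of clusters whose difference the labels do not explain, and these gave the only view of spread within a stage. Of 24 combinations of a member with an embryonic stage, 15 had reads in both lists, 6 in 1 list and 3 in neither. In the 15, the scaled reads of the lists differed by a median of 2.59-fold and at most by 9.49-fold (Cebpa at e15.5), and 10 differed by at least 2-fold. The gap of the 6 with reads in 1 list has no upper bound. Between 57.5% and 60.6% of all protein-coding genes in both lists differed by at least 2-fold too. A change between stages below about this size is therefore within what lists of 1 stage showed.

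The liver labels were set against marker genes. All 8 hepatocyte markers were listed at every stage, and their summed reads went from 1015 rpm at e12.5 to 10408 rpm in adults. The 13 erythroid markers held 66197, 89432, 96188, 34516 and 1632 rpm (10 listed up to P7, 6 in adults), and the 6 leukocyte markers 65.3, 145, 343, 149.8 and 81.6 rpm. Both sets of markers were thus highest at e18.5 with the lists added, as was the sum of the 8 genes given below. The markers were not split by list. The 6 endothelial markers went from 33.8 rpm at e12.5 to 243 at P7 and 182 in adults, and the 6 stellate and mesenchymal markers from 62.3 to 235 and 80.8 rpm, higher in adults than at e12.5 like the sum of the 8 genes. In mRNA-rpm the endothelial markers were highest in adults (1088 at P7, 1270 in adults), and the leukocyte markers held 555 at P7 and 564 in adults. The erythroid markers held 284071, 301332, 320327, 168641 and 12116 mRNA-rpm. The 4 markers of fetal hepatocytes held 3573, 4016, 5915, 6746 and 3.05 rpm. Of these, Afp, Dlk1 and Igf2 were not listed in adults, while H19 was, with 76 reads. The 5 cholangiocyte markers held at most 15.2 rpm (P7). In whole liver, fewer cells of a type and less bound RNA per cell cannot be told apart, and the part of the changing cell mixture in the results below was not tested.

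The sites that carry the main findings are shown first, as 26 bases of GRCm38 (mm10), 5′ to 3′ on the transcript strand, with capitals for the seed match. In a 7mer-A1 match the capitals are the complement of miRNA bases 2 to 7 and the A after it, and in a 7mer-m8 match the complement of bases 2 to 8. The first of these sites lies in the most heavily read cluster of the set, with a match of miR-125b-5p on the left and of miR-122-5p on the right. Over the 5 stages that cluster carries matches of 15 miRNAs.
Foxq1 3′UTR, miR-125b-5p and miR-122-5p, chr13:31560479-31560504, + strand: aaaatacaTCAGGGAacCACTCCAtg
Hnf4a 3′UTR, miR-122-5p, chr2:163572083-163572108, + strand: ccatccttggccactctCACTCCAgt
Hnf4a CDS, miR-16-5p, chr2:163562579-163562604, + strand: atggtgtttaaggacgTGCTGCTcct
Hnf4a CDS, miR-16-5p, chr2:163562537-163562562, + strand: cacgccggtgagcatcTGCTGCTtgg
Hnf4a CDS, miR-16-5p, chr2:163566225-163566250, + strand: cgctttggagagctgcTGCTGCTgtt
Foxa3 CDS, miR-16-5p, chr7:19014575-19014600, - strand: gaacatgtttgagaacgGCTGCTAtc
Foxa1 3′UTR, miR-30a-5p, chr12:57541573-57541598, - strand: ttaggcccaccacacgaGTTTACAgg
Cebpa 3′UTR, miR-144-3p, chr7:35121275-35121300, + strand: accattagccttgtgtgTACTGTAtg
Cebpa 3′UTR, miR-26a-5p, chr7:35121308-35121333, + strand: ccgctgttgctgaaggaACTTGAAgc
Prox1 CDS, miR-26a-5p, chr1:190153490-190153515, - strand: agggctatcacccaatcACTTGAAaa
Foxq1 CDS, let-7c-5p, chr13:31559329-31559354, + strand: tggccgagatcaacgagTACCTCAtg

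Mature sequences of the miRNAs named with these sites other than miR-122-5p, from RefSeq (GRCm38.p6), follow with the seed, bases 2 to 8, in capitals. They fall into groups that share a seed, and members of a group cannot be told apart at a site by the seed alone.
let-7c-5p: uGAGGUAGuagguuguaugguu
let-7b-5p: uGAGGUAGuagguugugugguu
miR-26a-5p: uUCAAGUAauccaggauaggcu
miR-26b-5p: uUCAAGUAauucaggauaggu
miR-125b-5p: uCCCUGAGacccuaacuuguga
miR-351-5p: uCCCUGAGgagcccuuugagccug
miR-16-5p: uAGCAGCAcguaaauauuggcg
miR-144-3p: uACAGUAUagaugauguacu
miR-30a-5p: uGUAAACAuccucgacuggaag

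The 8 genes together held 73.3, 104, 374, 176 and 183 rpm from e12.5 to adult. The sum was thus highest at e18.5 and 2.49-fold higher in adults than at e12.5 (log2 ratio 1.32, counting interval 1.25 to 1.38). The peak at e18.5 rests on the first list, which gave 434 rpm there, whereas the second gave 144 rpm, below P7 and adults. Foxq1 carried much of this, with 2.59% of the set's reads at e12.5, 49.1% at e18.5 and 43.1% in adults. Without Foxq1, the other 7 genes held 71.4, 92.5, 190.2, 128 and 104 rpm, a log2 ratio of 0.54 from e12.5 to adult. The direction of this ratio depends on the list, as it was -0.091 against the first list of e12.5 and 0.996 against the second. On the second scale the set held 247, 340.3, 1214, 826 and 1273 mRNA-rpm, so that adults were below e18.5 on the first scale and slightly above it on the second.

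**Figure D1:**
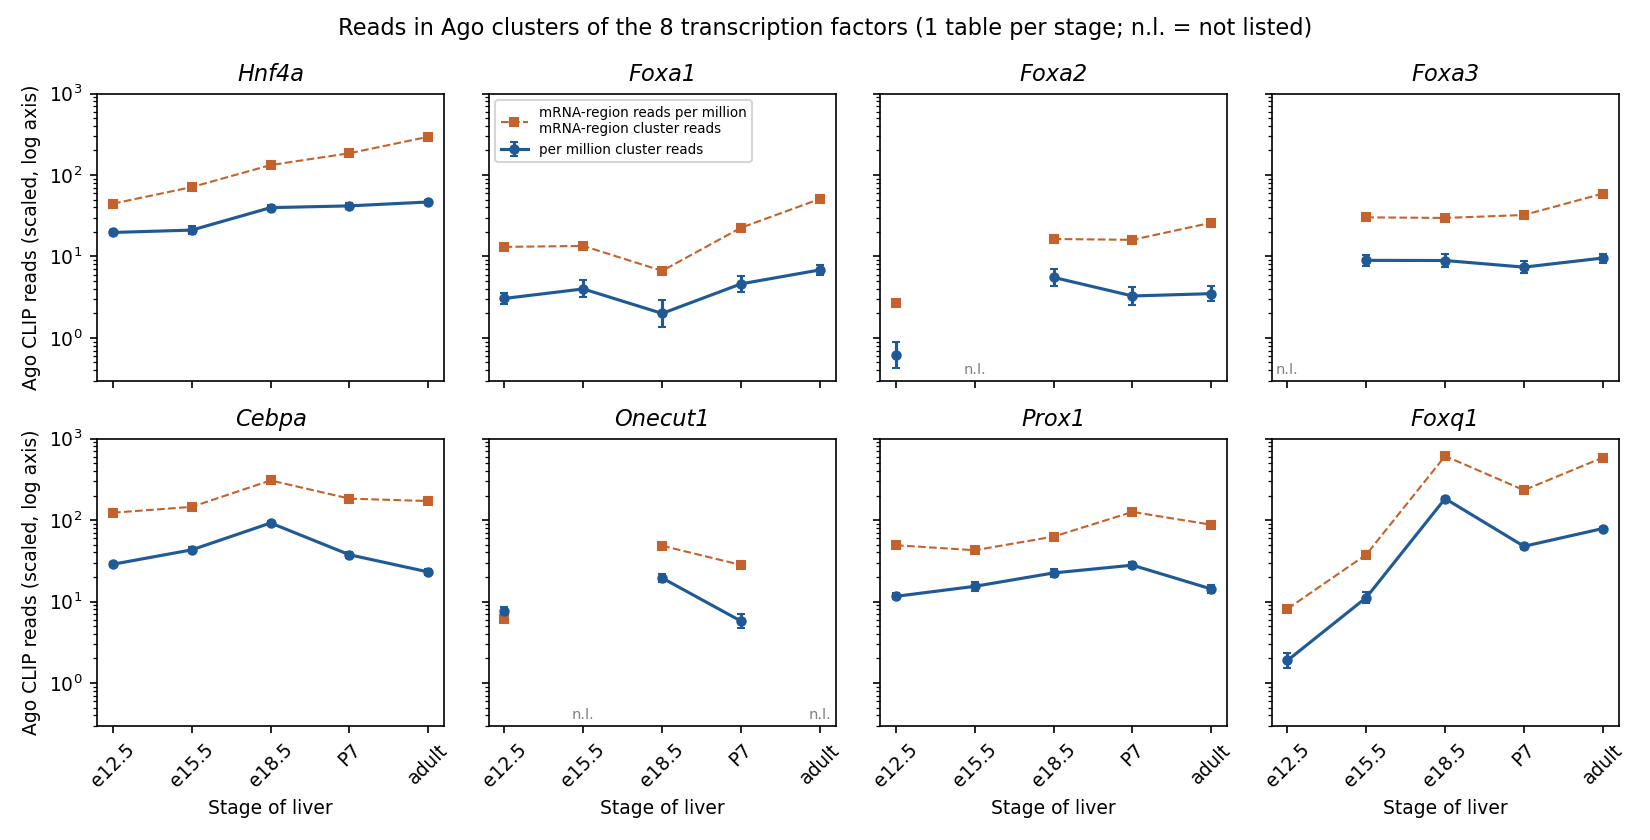
Scaled Ago CLIP reads (log axis) of each of the 8 genes at the 5 stages, in rpm (circles, bars are Wilson 95% counting intervals) and in mRNA-rpm (squares); n.l. marks a stage at which the gene is not listed. Foxq1 moves from 1.89 to 183 rpm between e12.5 and e18.5, more than any other member, and Foxa3 stays between 7.39 and 9.56 where it is listed.

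The genes differed in the stages at which they were listed. Hnf4a, Foxa1, Cebpa, Prox1 and Foxq1 were listed at all 5 stages, against 48.3% of all protein-coding genes and 52 of 71 other liver transcription factors. Foxa3 lacked an entry at e12.5, Foxa2 at e15.5, and Onecut1 at e15.5 and in adults.

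Of the 6 members listed both at e12.5 and in adults, 4 were at least 2-fold higher in adults, and none was at least 2-fold lower. These counts depend on the lists: with the first list of e12.5 alone, 1 of the 3 members that could be compared was higher (Prox1) and 1 lower (Cebpa, log2 ratio -1.23), with the second alone 3 of 6 were higher, and with the higher read number where clusters of both lists joined, 2 of 6 (Foxa2 and Foxq1). With the lists added, of the 10362 protein-coding genes in both tables, 18.7% were at least 2-fold higher in adults and 51.8% at least 2-fold lower. These shares were not computed with 1 list at a time, so the counts by list have no background. The median log2 ratio was 1.20 for the 6 members and -1.09 for all genes. In mRNA-rpm the count was again 4 higher and 0 lower (background 31.5% higher and 32.8% lower), with medians of 2.34 and -0.07. The members' median thus lay 2.29 above that of all genes on the first scale and 2.41 above it on the second (log2), while the median of all genes itself moved by 1.02 between the scales.

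**Figure D2:**
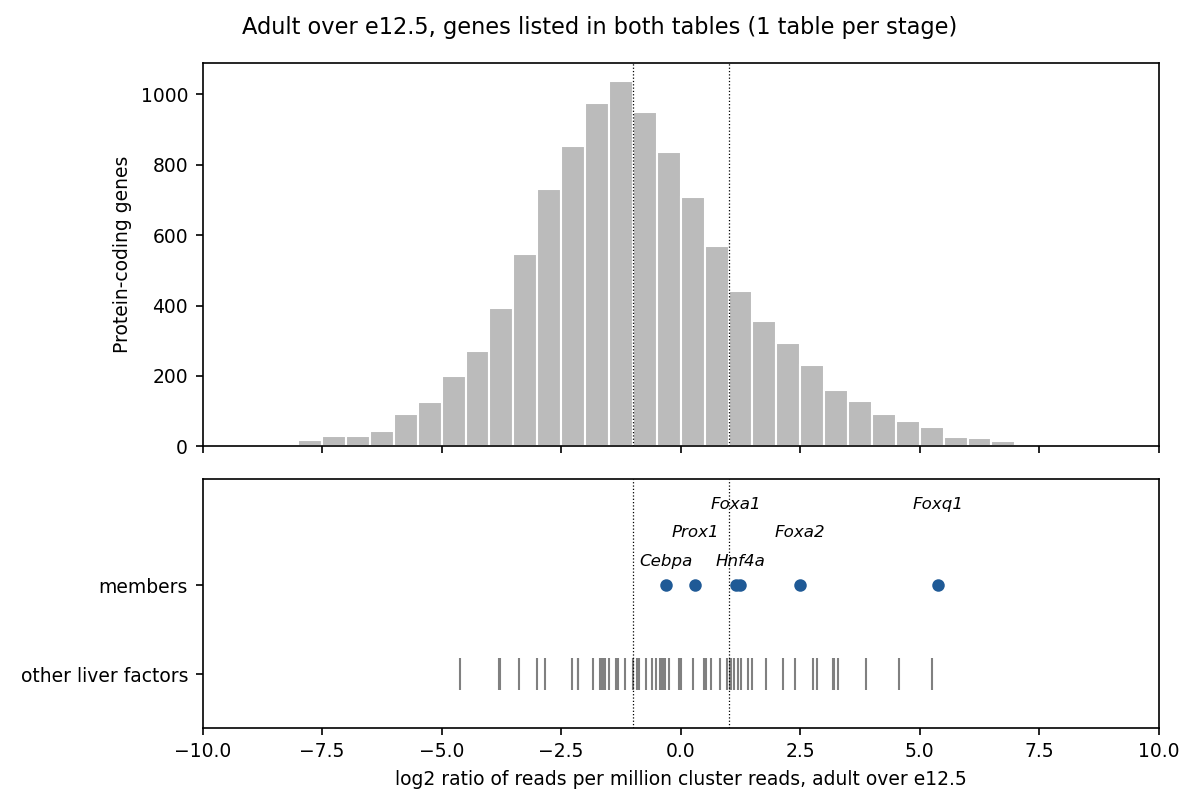
Log2 ratio of scaled reads (rpm), adult over e12.5, as a histogram over the 10362 protein-coding genes in both tables (top) and for the 6 members (circles) and 58 other liver transcription factors (ticks) listed in both (bottom); dotted lines mark 2-fold. The members lie between -0.31 (Cebpa) and 5.38 (Foxq1), all to the right of the median of all genes at -1.09.

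Neighbouring stages were compared in the same way, with shares of all genes again from the added lists only. From e12.5 to e15.5, 1 of 5 members in both tables was higher (Foxq1, 5.91-fold) and 0 were lower on either scale, against 23% higher and 21.8% lower of all genes (18.6% and 24.5% in mRNA-rpm). With the first lists alone, Foxq1 had no reads at e12.5 and Cebpa was higher (54.3 to 125 rpm, 2.30-fold), while in the second lists Foxq1 was higher and Cebpa went from 16.1 to 13.2 rpm. From e15.5 to e18.5, 2 of 6 were higher, Cebpa (2.14-fold) and Foxq1 (16.4-fold), against 30.1%, and 0 were lower against 27.5%. In mRNA-rpm the same 2 were higher and Foxa1 was 2.02-fold lower (background 29.5% in each direction). The Foxa1 call rests on 66 reads of the second list at e15.5 and 26 of the first at e18.5, so neither list alone can make it. With 1 list at a time, Foxq1 was higher at e18.5 in both. Cebpa was higher in the second (13.2 to 31.9 rpm) and in the first went from 125 to 108 rpm, and Prox1 was higher in the first (10.2 to 23.2 rpm, 2.28-fold) and in the second went from 17.3 to 19.6 rpm. From e18.5 to P7, 1 of 8, Foxa1, was higher (2.30-fold, background 19.8%) and 3 of 8, Cebpa, Onecut1 and Foxq1, were lower (2.45-, 3.38- and 3.85-fold, background 34.7%). These 3 were lower with the first list of e18.5 alone too, but with the second none was, as Cebpa went from 31.9 to 37.5 rpm, Onecut1 from 9.26 to 5.76 rpm and Foxq1 from 48.5 to 47.6 rpm. Foxa1 was not 2-fold higher with either list, since it went from 2.52 to 4.61 rpm with the first and had no reads in the second. In mRNA-rpm, Foxa1 and Prox1 were higher (2 of 8, background 29.4%) and Foxq1 alone was lower (background 23%). From P7 to adult, 0 of 7 moved by 2-fold in either direction, against 9.57% higher and 43.3% lower of all genes, and in mRNA-rpm 2 were higher, Foxa1 and Foxq1, and 0 lower (background 19.8% higher and 26.2% lower).

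Hnf4a, the nuclear receptor that maintains the hepatocyte programme, held 19.7, 21.1, 39.7, 41.8 and 46.6 rpm. Its order of levels was that of age, with overlapping counting intervals between e12.5 and e15.5, between e18.5 and P7, and between P7 and adult. This order was lost with 1 list at a time, as the embryonic levels were 33.5, 48.3 and 44.5 rpm in the first list, with e15.5 above adults, and 12.9, 11.1 and 21.5 rpm in the second. The adult level was 2.37-fold that of e12.5, below the median gap of 2.59-fold between lists, and 6.62-fold on the second scale (44.5 to 294 mRNA-rpm). At e12.5, 9 of its 19 clusters lay in introns alone, including the pair with the most reads (121 each), against 0 of 5 at e15.5, 0 of 9 at e18.5, 5 of 36 at P7 and 7 of 32 in adults. The share of clusters in introns alone was not computed over all genes, so a trait of the e12.5 table cannot be told from one of Hnf4a.

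In 2 places Hnf4a had a cluster in all 5 tables when the lists were added, and in neither with 1 list at a time. The first is in the coding sequence, in exon 5 of 10 of the GENCODE transcript with the longest principal coding sequence (span of its seed matches chr2:163559021-163559062), with 67, 214, 125, 45 and 65 reads from e12.5 to adult (those of e12.5 in the second list, those of e15.5 in the first). This cluster had 25 miRNAs with a match over all tables, and the most abundant of them at every stage was miR-16-5p, by a 6mer. The second is in the 3′UTR (chr2:163572087-163572126), centred 2018 bases after the coding sequence, and holds the miR-122-5p 7mer-A1 match shown above in every table. Its reads were 9, 13, 75, 36 and 134, and in adults it was the gene's most heavily read cluster. Scaled, this is 0.201, 0.787, 5.77, 2.18 and 5.38 rpm, 26.8-fold higher in adults than at e12.5. The rest of Hnf4a went from 19.5 to 41.2 rpm over the same span. The conservation score of the site was 0.001.

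miR-16-5p, which held 3.49%, 3.18%, 9.30%, 3.51% and 14% of miRNA reads, had 3 7mer-m8 matches at 2 places in the Hnf4a coding sequence. The site at chr2:163562595-163562601 in exon 6 was listed at e12.5 in both lists, and its neighbour at chr2:163562553-163562559 at P7 (5 reads) and in adults (81 reads). In exon 8, the match at chr2:163566241-163566247 was listed at e18.5 (103 reads over both lists) and in adults (38 reads). Conservation scores were 0.979, 0.908 and 1. No stage listed all 3.

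The Foxa genes, forkhead factors that bind closed chromatin before other liver regulators, had fewer reads and no cluster in more than 3 tables. Foxa1 held 3.05, 4.0, 2.0, 4.61 and 6.83 rpm. With the lists added, its lowest level was thus at e18.5, where the sum of the set was highest, but it rests there on 1 cluster of 26 reads. These are all in the first list, whereas the reads of e12.5 and e15.5 are all in the second. In the first list alone, e18.5 (2.52 rpm) was the only embryonic stage with Foxa1 reads. Adults stood 2.24-fold above e12.5, where all 137 reads were in the second list, and against that list alone the log2 ratio was 0.58, short of 2-fold. A 3′UTR site of miR-30a-5p, 448 bases after the coding sequence and with a conservation score of 0.999, was listed in adults only, with 28 reads. The highest Foxa1 clusters at P7 (33 reads) and in adults (31 reads) were at 1 place in the 3′UTR, which has a 6mer match of miR-122-5p.

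Foxa2 held 0.624 rpm at e12.5, from a single cluster of 28 reads, and 5.53, 3.27 and 3.5 rpm from e18.5 on. It was the only member with no 3′UTR cluster at any stage, as 7 of its 10 clusters lay in the coding sequence. The coding-sequence cluster at chr2:148043649-148043671 was its highest at e18.5 (57 reads) and in adults (38 reads). Foxa3 held 8.96, 8.92, 7.39 and 9.56 rpm from e15.5 to adult, with counting intervals that overlap at all 4 stages. At e15.5 its 148 reads were all in the second list, which gave 12.2 rpm, and the first had none. On the second scale it held 30.2, 29.7, 32.3 and 59.1 mRNA-rpm, so that adults stood above the other 3 stages. Of its 24 mRNA clusters, 17 were in the coding sequence and 7 in the 3′UTR. The miR-16-5p match in its second exon (conservation score 1) was listed at e15.5 with 18 reads and at e18.5 with 5.

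Cebpa, which drives metabolic genes and withdraws hepatocytes from the cell cycle, held 28.7, 43.1, 92.1, 37.5 and 23.1 rpm. It was the only member listed at both ends whose adult level was below that of e12.5 on the first scale (log2 ratio -0.31), and on the second scale it was above (0.48). Its level was highest at e18.5 on both scales when the lists were added, but in neither list alone: in the first e15.5 was higher, and in the second P7 was. Per kilobase of exon, Cebpa had the highest level of the set at e12.5 (10.9 rpm per kilobase), e15.5 (16.4) and P7 (14.2), above at least 93.9% of the protein-coding genes with such a value at those stages, while Foxq1 was higher at e18.5 (37.9 against 34.9) and in adults (16.2 against 8.75). In the second list alone the order changed at e15.5, where Foxa3 was highest (6.01 against 4.99 for Cebpa), and at e18.5, where Cebpa was (12.1 against 10.02 for Foxq1). The widest gap among the combinations with reads in both lists was on this gene, the first list giving 54.3, 125 and 108 rpm at the embryonic stages and the second 16.1, 13.2 and 31.9 rpm.

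Clusters recurred on Cebpa more than on any other member, as 3 places in its 3′UTR were listed in all 5 tables and only 11 of its 26 places (42.3%) in 1 table alone. The place at chr7:35120738-35120815, centred 281 bases after the coding sequence, held 411, 195, 221, 71 and 22 reads, or 9.16, 11.8, 17.0, 4.30 and 0.884 rpm. None of the 21 miRNAs matched there reached 0.1% of miRNA reads at any stage. At chr7:35120861-35120981 the reads were 26, 172, 14, 31 and 43 from e12.5 to adult, with no order by age. The place at chr7:35121499-35121579 lay between 1.74 and 7.46 rpm with the lists added (at e12.5 and e15.5 the first list had no reads there), and miRNAs matched there were again all below 0.1%. A further 3′UTR place, chr7:35121242-35121353, was listed at every stage but e15.5, with 182, 89, 143 and 36 reads. It has the miR-144-3p match with a conservation score of 1 at e12.5, P7 and adult, where the match itself has 58, 36 and 14 reads. The match of miR-26a-5p and miR-26b-5p (score 0.373) is listed at the same stages. miR-144-3p, known from erythroid cells, fell from 21.7% of miRNA reads at e12.5 to 1.54% in adults, while miR-26a-5p went from 1.04% to 3.79%, so the most abundant miRNA matched at this place was miR-144-3p at e12.5 and miR-26a-5p at P7 and in adults.

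Onecut1, which acts early in hepatoblasts and in bile duct formation, held 7.73 rpm at e12.5, 19.4 at e18.5 and 5.76 at P7. All of its cluster entries are also listed under Gm20649, a long noncoding RNA on the same strand, so its reads cannot be assigned to Onecut1 alone. At e12.5, 5 of its 8 clusters lay in introns, again with no share over all genes beside it. It had 6.03 mRNA-rpm at e12.5, against 48.4 at e18.5 and 28.1 at P7. Its 12 coding-sequence clusters outnumbered the 2 in the 3′UTR.

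Prox1, which promotes the growth and migration of hepatoblasts, held 11.6, 15.4, 22.4, 27.9 and 14.3 rpm. With the lists added it was the only member with its highest level at P7, while with the second list alone Cebpa was highest there too. On the second scale P7 was again highest for Prox1 (126 mRNA-rpm, against 87.7 in adults). Of its 60 places, 53 were listed in 1 table, and none in all 5. A coding-sequence place in exon 3 of 5 (chr1:190153488-190153516) had the 7mer-A1 match of miR-26a-5p and miR-26b-5p at e12.5 (31 reads), e18.5 (54), P7 (34) and adult (23), with a conservation score of 1. In the 3′UTR, a 6mer of miR-122-5p was listed at e15.5 (44 reads) and e18.5 (80 reads over both lists), with a score of 0.001.

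Foxq1, a forkhead factor with a single exon, held 1.89, 11.2, 183, 47.6 and 78.7 rpm. It moved more than any other member, 41.5-fold from e12.5 to adult (71.8-fold on the second scale), above 98.9% of all genes in both tables. This exceeds 9.49-fold, the largest gap among the 15 combinations with reads in both lists, but Foxq1 itself had reads in only 1 list at e12.5 (0 and 85). Against that second list alone, the adult log2 ratio was 4.80. Within stages, the first list gave 0, 3.39 and 219 rpm from e12.5 to e18.5 and the second 2.83, 14.1 and 48.5 rpm, so that no list of e12.5 or e15.5 reached either list of e18.5, or the P7 or adult level. The rank of e18.5 against adults depends on the list, since the adult level lay between the lists of e18.5. The P7 level was below both lists, but close to the second (47.6 against 48.5 rpm).

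A single cluster in the only exon of Foxq1 held most of its reads from e15.5 on, whereas at e12.5 a 5′UTR cluster of 45 reads was its highest. It lies in the 3′UTR, centred 376 bases after the coding sequence, and was listed in all 5 tables with 20, 175, 1622, 634 and 1734 reads, or 0.446, 10.6, 125, 38.4 and 69.7 rpm. Its share of all Foxq1 reads was 23.5%, 94.6%, 68.0%, 80.7% and 88.6%. The miR-122-5p 7mer-A1 match at chr13:31560496-31560502 was listed in each table, with a conservation score of 0.077. Beside it lies the match of miR-125b-5p and miR-351-5p at chr13:31560487-31560493, where the first of these held 0.257% of miRNA reads at e12.5 and 1.98% in adults. miR-122-5p, the dominant miRNA of hepatocytes, held 1.44%, 4.33%, 9.20%, 12.3% and 11.2% of miRNA reads. Its 7.78-fold increase from e12.5 to adult was smaller than the 156-fold of the Foxq1 cluster and the 26.8-fold of the Hnf4a cluster. The measures are unlike, since the miRNA is given as a share of miRNA reads and the clusters as a part of all cluster reads. The share of the miRNA was not split by list. At e12.5 neither cluster had reads in the first list, and against the second alone the folds were 105 and 18.0. Both clusters were higher at e18.5 than at P7 when lists were added, while the miRNA was not. The excess at e18.5 came from the first list, with 147 rpm for the Foxq1 cluster and 7.28 rpm for that of Hnf4a. In the second list the Foxq1 cluster held 38.9 rpm, close to the 38.4 rpm of P7, and the Hnf4a cluster was not listed.

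**Figure D3:**
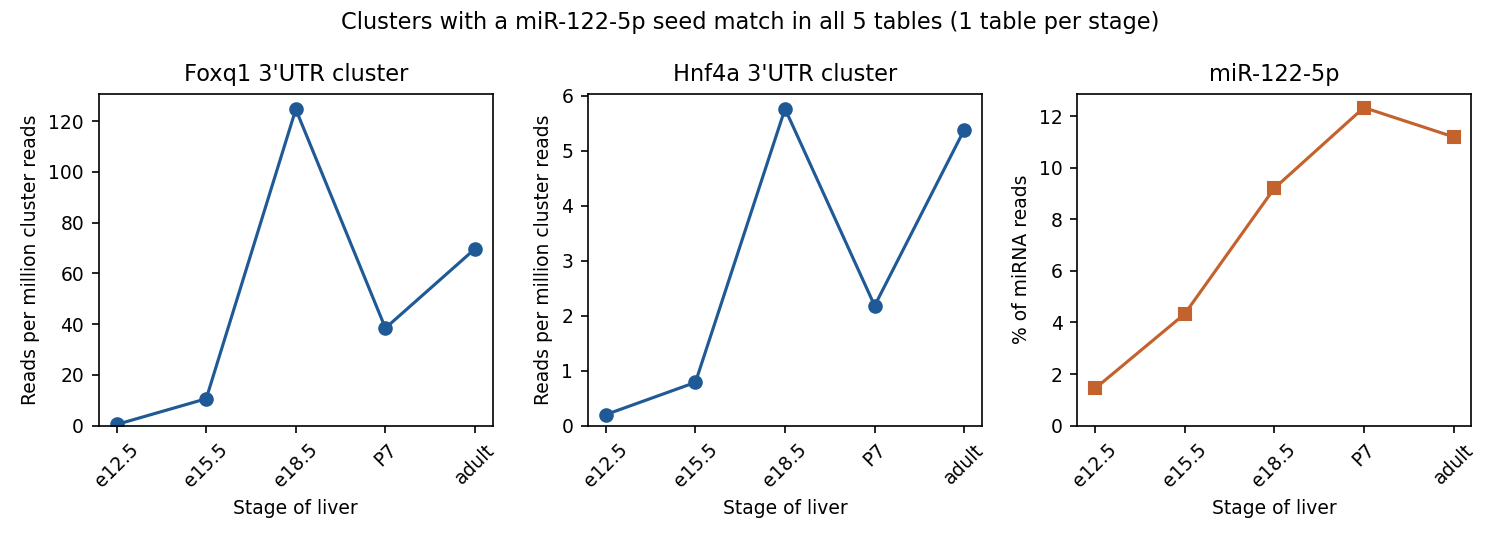
Scaled reads (rpm) of the Foxq1 and Hnf4a 3′UTR clusters with a miR-122-5p match in all 5 tables, beside the share of miR-122-5p among miRNA reads, by stage (linear axes, 1 table per stage). Both clusters are low at e12.5 and e15.5, high at e18.5 (125 and 5.77), lower at P7 (38.4 and 2.18) and high again in adults (69.7 and 5.38), whereas miR-122-5p is highest at P7 (12.3%). The height at e18.5 comes from 1 of the 2 lists added there, as the other gives 38.9 for Foxq1 and no reads for Hnf4a.

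The remaining Foxq1 clusters together held 1.45, 0.605, 58.8, 9.21 and 9.0 rpm. The height at e18.5 again came from the first list (71.7 rpm), and the second gave 9.63 rpm, near P7 and adults. A 5′UTR cluster (chr13:31558665-31558705) was also listed in all 5 tables, with 20, 10, 163, 26 and 42 reads (those of e18.5 all in the first list) and a 6mer of miR-122-5p. The let-7 match in the coding sequence, 429 bases after its start and with a conservation score of 0.998, was listed from e18.5 on, in a place with 115 reads at e18.5, all in the first list, 20 at P7 and 35 in adults. let-7c-5p, the most abundant miRNA of this seed from e18.5 on, went from 0.464% of miRNA reads at e12.5 to 10.9% at P7 and 15.6% in adults.

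Other 7mer or 8mer matches of miRNAs with at least 1% of miRNA reads were each listed at 1 stage. In Hnf4a they were those of miR-142a-3p, miR-30a-3p and miR-122-5p (in an intron) at P7 and of miR-192-5p, miR-29a-3p and miR-21a-5p in adults, with 17 to 34 reads. Prox1 had miR-16-5p and miR-142a-3p at P7 and miR-30a-5p in an intron in adults, with 9 to 18 reads, and Foxa3 had miR-192-5p in its 3′UTR in adults with 14. In an Onecut1 intron, the 8mer of miR-26a-5p and miR-26b-5p was listed at e18.5 with 52 reads. Foxa2 had none.

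Over the whole set, 247 places were told apart when clusters of different tables were joined by overlap. Of these, 185 (74.9%) were listed in 1 table, 4 in 4 tables and 7 in all 5, and the 7 belong to Cebpa (3), Hnf4a (2) and Foxq1 (2). With the first list alone 1 place was in all 5, the Cebpa place 281 bases after the coding sequence, and with the second alone 4 were, the 3 of Cebpa and the Foxq1 3′UTR place. Places were not counted over all genes. Whether these shares differ from the usual is therefore not known, for the set or for single members.

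**Figure D4:**
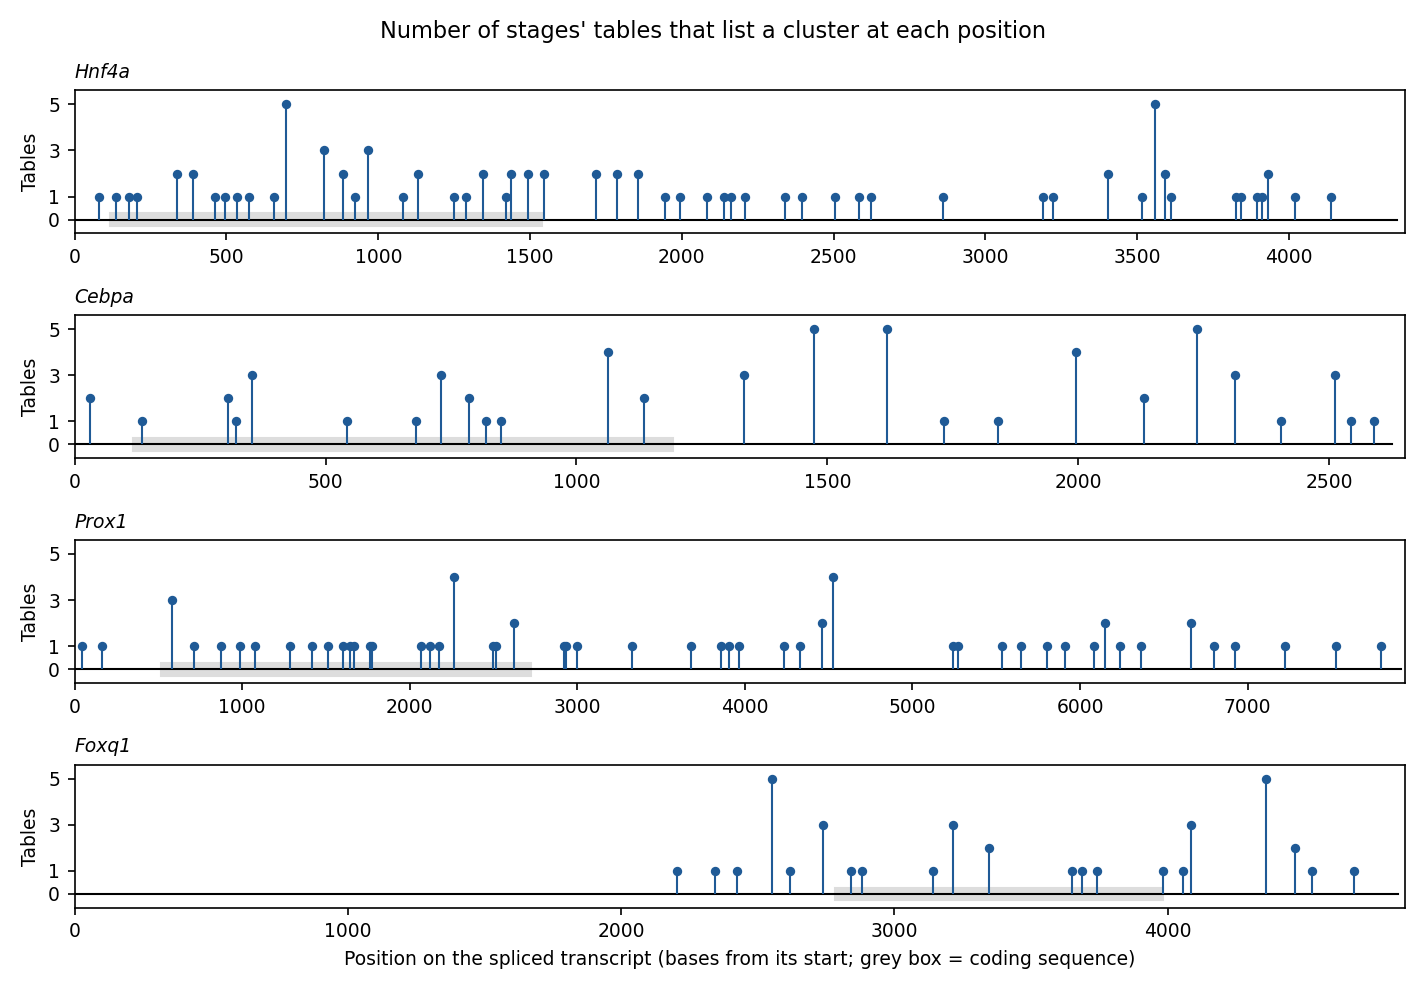
Position along the spliced transcript (bases from its start, grey box for the coding sequence) of each clustered place of Hnf4a, Cebpa, Prox1 and Foxq1, with the number of the 5 tables that list it on the vertical axis. Most places stand at 1 table, and the places at 5 tables are 2 on Hnf4a, 3 on Cebpa and 2 on Foxq1, with none on Prox1.

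Of 316 mRNA clusters of the 8 genes, 45.9% (40.5 to 51.4) touched a 3′UTR, 47.5% a CDS and 8.23% a 5′UTR. Among all protein-coding genes these shares were 37.7%, 64.8% and 5.29%. The members differed among themselves: the 3′UTR share was 60.6% for Cebpa, 54.8% for Prox1 and 50.0% for Hnf4a, but 13.3% for Onecut1. By reads, 3′UTR clusters held 82.2% of those of Foxq1, 70.1% of Cebpa, 52% of Foxa1, 46.8% of Prox1, 34.5% of Foxa3, 29.2% of Hnf4a, 2.01% of Onecut1 and none of Foxa2. Clusters of 1 gene share its transcript and are not independent samples of it, so no test was made.

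**Figure D5:**
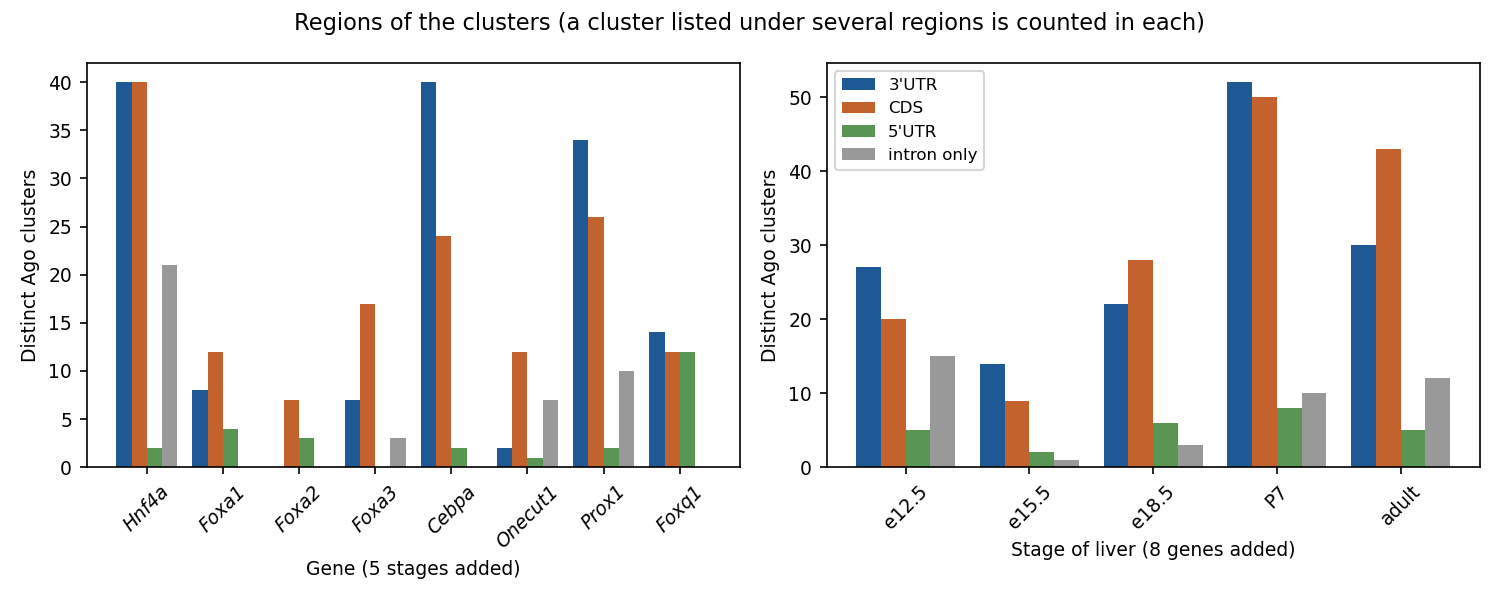
Distinct clusters in 3′UTR, CDS, 5′UTR or introns alone, by gene over the 5 stages (left) and by stage over the 8 genes (right). Hnf4a and Cebpa each have 40 clusters touching the 3′UTR, Foxa2 has none, and the 3′UTR count exceeds the CDS count at e12.5, e15.5 and P7 but not at e18.5 or in adults.

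The positions matched in the members' coding sequences had a median conservation score of 0.994 (497 positions), against 0.966 for all protein-coding genes. In the 3′UTR the medians were 0.164 (435 positions) and 0.225. Prox1 and Hnf4a were at opposite ends among members with many 3′UTR positions, as 58.6% of the 99 on Prox1 and none of the 124 on Hnf4a scored at least 0.9.

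Member clusters carried seed matches of 245, 83, 217, 413 and 313 miRNAs from e12.5 to adult, of 745, 589, 644, 743 and 585 listed in the tables. Most of these miRNAs were rare, like most miRNAs listed: 28, 12, 40, 53 and 41 of them reached 0.1% of the miRNA reads, against 80, 80, 84, 75 and 57 of all those listed. A 7mer or 8mer match of a miRNA at that level was present in 14.8%, 14.3%, 13.6%, 17.3% and 23.3% of the members' 27, 14, 22, 52 and 30 3′UTR clusters. For all protein-coding genes the shares were 24.9%, 28.8%, 28.6%, 25.7% and 23.5%. The members' share was the lower at each stage, but that of all genes lay inside the members' counting interval each time (9.38 to 29.7% at P7, the narrowest).

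A list of 71 other liver transcription factors was set beside the members. Of the 58 listed both at e12.5 and in adults, 18 were at least 2-fold higher and 19 at least 2-fold lower in adults, with a median log2 ratio of -0.34. On the second scale, 27 of 56 were higher and 8 lower, with a median of 0.77. Among the 54 with at least 100 reads in either table, the highest ratios were those of Hhex (5.26, from 5 to 106 reads), a homeodomain factor of early liver, Ppara (4.57, from 117 to 1542), the fatty acid receptor, and Zbtb16 (3.87). The lowest were those of Cebpg (-4.63, from 3029 to 68 reads), Tead1 (-3.79) and Tcf7l2 (-3.79), of which Tead1 and Tcf7l2 are the DNA-binding partners of the Hippo and Wnt pathways. Hhex reached 100 reads only in adults and Cebpg only at e12.5, and the 5 reads of Hhex at e12.5 are the fewest that a table lists.

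The genes whose scaled reads over the 5 stages lay nearest to Foxq1, the member with the highest mean, were sought among 7567 genes by the distance between their log2 profiles after centring. They were Stbd1 (distance 0.82), Ceacam1 (0.84), Trim34a (0.89), Hfe2 (1.01) and Egfr (1.05). Their shape is that of Foxq1 by the way they were chosen, lowest at e12.5 and highest at e18.5 with the lists added (in the second list alone, Foxq1 was highest in adults). They held 96.4, 78.2, 8.46, 57.3 and 106 rpm at e18.5.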

How the data were processed

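Interaction tables of Ago HITS-CLIP from 5 stages of mouse liver were used, with 1 sample per stage. Per the methods, reads were cleaned with the FASTX-Toolkit and mapped with Bowtie (mm10 and miRBase precursors), overlapping reads were merged into clusters, and the clusters were annotated from refGene and Ensembl and searched for miRNA seeds. Versions of the tools are not given in the sources used here. The submitters' processing notes name mm9 as well. The reads column, as deposited, is a signal in whole numbers with no scaling to depth. Its header differs between e12.5 (miRNA target) and the other stages (peak). In all tables its highest number over the sites of a cluster was taken as the reads of that cluster. The deposited conservation and free-energy columns are scores. All 1477 distinct sites of the members matched the seed in the GRCm38 sequence, so the coordinates are those of mm10.

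A cluster was a cluster name within a list, with its highest read number. In the 3 embryonic tables, whose miRNA order restarts once, the reads of both lists were added, and for counts clusters that overlapped by at least 1 base on the same strand were joined. Shares of miRNA reads rest on the whole number in each interaction name, whose meaning the tables do not state. Places were clusters joined in the same way over tables. Called means at least 2-fold apart. The members and the gene lists were chosen with earlier results of these data known. All members were described, with their highest and recurring clusters, miRNAs with at least 1% of miRNA reads and a 7mer or 8mer match, the 3 highest and 3 lowest other factors with at least 100 reads, and the 5 genes nearest Foxq1. Mature sequences were taken from RefSeq for 16 of the 17 miRNAs named, and that of miR-122-5p is not printed here. GENCODE vM21 gave exons. Computations used Python 3.11.15, pandas 2.3.3, SciPy 1.17.1 and pysam 0.24.0, and plots matplotlib 3.10.9. The cluster and ratio steps were tested on simulated data. The methods state that the Ago2 CLIP was done in biological replicates and a supplement lists a second e18.5 library, but the tables and labels do not name replicates, and whether the lists are these is not stated.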

Additional observations from a re-analysis of the deposited data

How the results depend on the processing

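The log2 ratio of the summed reads of the 8 genes, adult over e12.5, was 1.32 and stayed above 0 under 9 other settings, but not under 1 of 4 added after seeing the data. It was 1.33 with at least 10 reads per cluster, but moved to 1.62 with the library totals of the study as the scale, to 2.11 with the reads of mRNA clusters as the scale for all member reads, to 0.72 with the first list alone, to 1.73 with the second list alone, to 1.11 when joined clusters took the higher read number, to 1.48 with entries that list the member alone, to 1.69 in 3′UTR clusters and to 1.58 in mRNA clusters. Leaving out Foxq1, which was chosen after seeing the data, gave 0.54, 1.33 with mRNA-cluster reads as the scale, 0.996 with the second list alone and -0.091, a reversed direction, with the first list alone. The 4 members at least 2-fold higher in adults became 1 of the 3 that could be compared with the first list alone, 3 of 6 with the second, 3 of 5 in 3′UTR clusters, 2 with the higher read number of joined clusters, 2 at a threshold of 4-fold, and 5 of 6 with mRNA-cluster reads as the scale for all member reads. The count of members at least 2-fold lower was 0 and became 1 with the first list alone and 1 in 3′UTR clusters. The 5 members listed at all stages became 3 with the first list alone, 4 with the second and 4 in 3′UTR clusters. The 3′UTR share of 45.9% lay between 45.1% and 47.5% under its 6 other settings. Per member, the log2 ratio stayed above 0 under the settings of this section for Hnf4a (0.48 to 2.12), Foxa1 (0.58 to 1.95), Foxa2 (1.91 to 3.28) and Foxq1 (4.80 to 7.34), and changed sign for Cebpa (-1.23 to 0.52) and Prox1 (-0.06 to 1.09). The mRNA-rpm scale is not among these settings, and the ratio of Hnf4a on it, given earlier, lies above this range. Why the lists differ was not tested. No paired analysis was possible because each stage has 1 sample. Most member clusters hold few reads, and tables without a gene set no bound on its level.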
